A study of Mus musculus with 8 samples.

Results

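Every day the retinal pigment epithelium (RPE), the pigmented cell layer behind the retina, takes up the shed tips of the photoreceptor outer segments. In the textbook sequence, the RPE integrin αvβ5 binds an outer segment through the secreted bridge protein MFG-E8, and the receptor tyrosine kinase MERTK, which is engaged by the bridge proteins GAS6 and protein S, then drives engulfment. AXL and TYRO3 are the other receptors of the MERTK family (the TAM receptors), and CD36 is a scavenger receptor that has been linked to the uptake of oxidised lipid. The outer segment phagocytosis machinery was taken here as 9 genes, chosen by name with earlier results of these data already known. They are the receptors Mertk, Axl and Tyro3, their ligands Gas6 and Pros1, the bridge Mfge8, the integrin subunits Itgav and Itgb5, and Cd36. All 9 were among the 31053 genes counted, and 8 of them were among the 12889 genes that carried enough reads to be tested.

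The transcripts were measured in RPE isolated from mice at postnatal day 29 (P29), in 4 libraries from Bbs8-/- animals and 4 from Bbs8+/+ (wild type) littermates. Bbs8, listed under the symbol Ttc8, encodes a subunit of the BBSome, a complex that moves proteins in and out of cilia. All animals carried the strain label C57/Bl6 and were untreated, and their sex was not determined. The deletion is carried in the germline, so photoreceptors and every other cell of the eye lacked the gene as well as the RPE. Libraries were made with QuantSeq, a 3′ mRNA method in which a read comes from the end of a transcript, so values are given as CPM (the counts of a gene relative to the total of its library, scaled by the TMM method of edgeR) and are not divided by transcript length.

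Libraries held 2389835 to 3093428 counts on genes, and 3 counts corresponded to 0.970 to 1.26 CPM. Ttc8 fell from 105, 142, 144 and 116 counts in Bbs8+/+ to 15, 5, 14 and 15 counts in Bbs8-/-, in the direction of the labels. Bbs8+/+ library 1 differed more from the other Bbs8+/+ libraries than those did from each other, and it is named below where a value rests on it. Summed RPE markers were abundant in all libraries, at 35940 to 36990 CPM in Bbs8+/+ and 44380 to 47780 CPM in Bbs8-/-. The secreted carrier Ttr alone gave 20170 to 21450 and 29940 to 33220 CPM of these sums. Of the 9 RPE markers, 2 were called higher in Bbs8-/-, Ttr and Slc16a8, with log2 fold changes of 0.60 and 0.37. Another 3 were called lower, Rpe65 (-0.24), Rdh5 (-0.26) and Stra6 (-0.43), so the sum does not stand for the whole list. Best1, a defining RPE channel, was at or near 0 in every library, with at most 2 CPM. Rod markers were also abundant and differed between the genotypes: all 8 of 8 were lower in Bbs8-/-, and their sum went from 47560 to 52020 CPM down to 19180 to 19740 CPM. In such bulk samples fewer cells of a type and less RNA per cell cannot be told apart.

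MFG-E8 holds the integrin with an Arg-Gly-Asp (RGD) site, and 3 other secreted proteins of the wider phagocytosis list that are known integrin ligands, vitronectin (Vtn), thrombospondin 1 (Thbs1) and EDIL3 (Edil3), hold one as well. The coding sequence around each site is shown because these ligands share the motif that contacts αv integrins but did not share a direction of change. It was read from the GENCODE M21 transcripts (GRCm38, the build of the counts) with the 3 codons for Arg-Gly-Asp in capitals and 45 bases on each side, 5′ to 3′ on the coding strand.
Mfge8: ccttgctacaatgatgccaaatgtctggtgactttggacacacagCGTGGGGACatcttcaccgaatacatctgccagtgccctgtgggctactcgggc
Vtn: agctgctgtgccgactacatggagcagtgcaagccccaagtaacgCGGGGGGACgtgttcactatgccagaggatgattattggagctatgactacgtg
Thbs1: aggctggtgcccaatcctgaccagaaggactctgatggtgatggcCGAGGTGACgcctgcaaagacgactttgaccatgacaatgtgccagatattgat
Edil3: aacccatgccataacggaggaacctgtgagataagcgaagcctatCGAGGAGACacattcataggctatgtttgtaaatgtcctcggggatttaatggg

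In Mfge8 the arginine is codon 87 of 463, in exon 3 of 10, and the window lies at chr7:79145263-79145361 on the minus strand. The Edil3 window lies at chr13:89042446-89042544 on the plus strand, with the arginine at codon 96 of 480 in exon 4 of 11. For Vtn the arginine is codon 64 of 478 in exon 3 of 8, and for Thbs1 it is codon 927 of 1171 in exon 18 of 22. In both of these the window crosses an exon junction, so only the 3 codons are placed, at chr11:78499706-78499714 and chr2:118122882-118122890 on the plus strand. Each of the 4 genes had 1 such site in frame, and 1562 of 21553 protein-coding genes (7.25%) held at least 1, so the letters alone do not mark an integrin ligand.

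Mfge8 was the 1 gene of the 9 that passed the test. Its bridge protein is secreted by the RPE and links phosphatidylserine on the outer segment tip to αvβ5. The gene lies at chr7:79133768-79149060 on the minus strand. In Bbs8+/+ it stood at 495.9, 428.9, 401 and 452.3 CPM, and in Bbs8-/- at 216, 272.3, 302.4 and 259.6 CPM. The highest Bbs8-/- value stayed under the lowest Bbs8+/+ value, with a gap of about the width of either range. The mean went from 444.5 ± 40.2 CPM to 262.6 ± 35.9 CPM (SD, n = 4 each), and edgeR's quasi-likelihood test put the log2 fold change at -0.76 ± 0.10 (SE), adjusted p = 1.27e-07. On a linear scale Bbs8-/- RPE held 0.591 of the Bbs8+/+ level, with a 95% interval of 0.516 to 0.676. Without Bbs8+/+ library 1 the log2 fold change was -0.70, and over all 18 alternative settings it ranged from -1.10 to -0.66 with adjusted p-values of at most 3.62e-06.

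**Figure D1:**
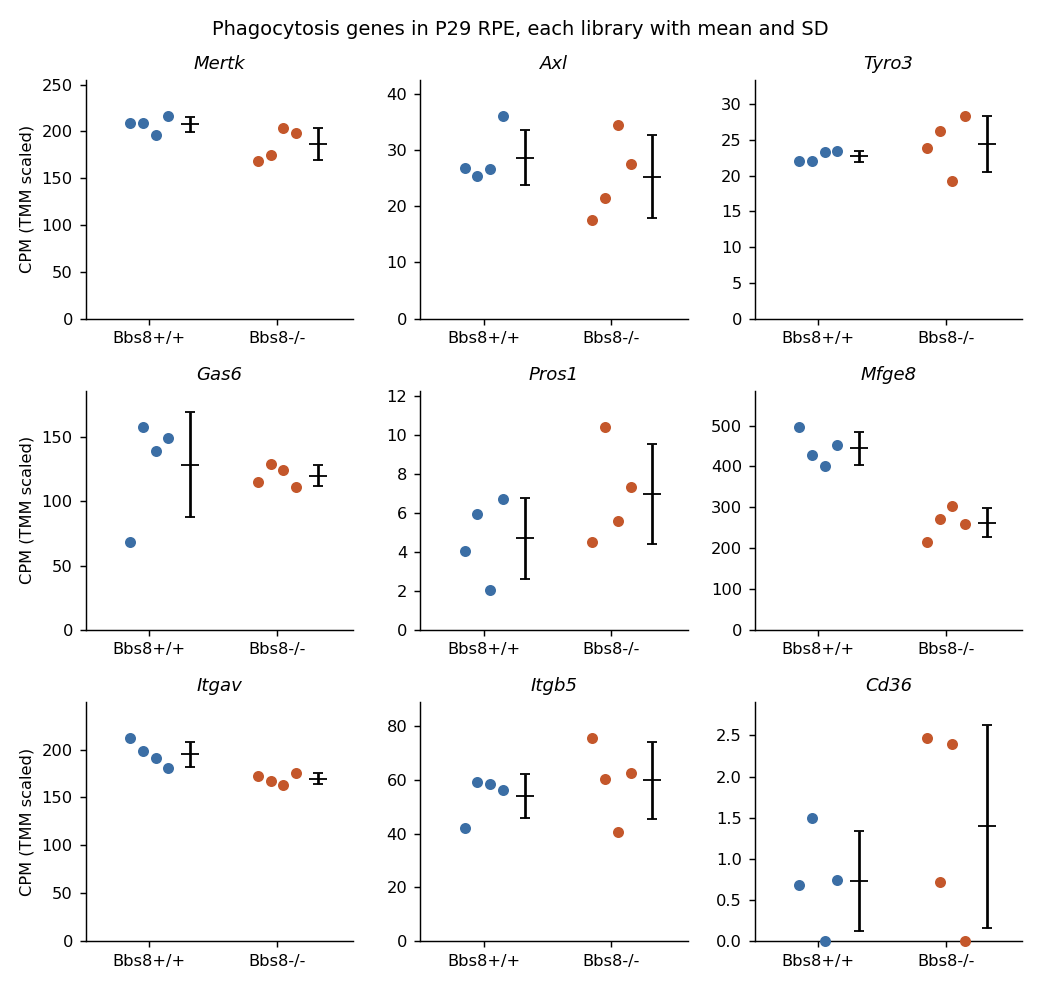
CPM of each of the 9 genes on a linear axis that starts at 0, with 1 point per library (Bbs8+/+ in blue, Bbs8-/- in orange) and the mean with its SD beside the points. The Mfge8 points of the genotypes are far apart, at 401 to 495.9 against 216 to 302.4 CPM, the Itgav points are close but do not overlap, and those of the other 7 genes overlap.

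The integrin subunits that receive MFG-E8 were not called. Itgav, the αv chain at chr2:83724397-83806916 (plus strand), stood at 211.6, 198, 190.9 and 180.6 CPM in Bbs8+/+ and at 172.8, 167, 163.2 and 175.4 CPM in Bbs8-/-. All Bbs8-/- values lay below all Bbs8+/+ values, although the nearest of them were only a few CPM apart. The log2 fold change was -0.20 ± 0.10 with an adjusted p of 0.213 by edgeR, and the unadjusted p was 0.0497. That borderline p moved with single libraries: edgeR gave -0.16 (unadjusted p = 0.112) without Bbs8+/+ library 1. Without Bbs8+/+ library 4 it gave -0.25 (unadjusted p = 0.0352). Itgb5, the β5 chain at chr16:33829665-33949338 (plus strand), stood at 42, 59.3, 58.5 and 56.5 CPM in Bbs8+/+ and at 75.5, 60.6, 40.8 and 62.5 CPM in Bbs8-/-. Bbs8-/- libraries 1, 2 and 4 lay above every Bbs8+/+ library and Bbs8-/- library 3 lay below them all, so the ranges overlapped. The low value of Bbs8+/+ was in library 1. The Itgb5 log2 fold change was 0.15 ± 0.18 (adjusted p = 0.684), with a 95% interval of the fold from 0.866 to 1.42. It was -0.19 when libraries were scaled to the summed RPE markers, and 0.26 without Ttr in that sum.

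Mertk, the receptor without which RPE binds outer segments but does not engulf them, lies at chr2:128698956-128802894 on the plus strand. It stood at 208.9, 208.5, 196.2 and 216.3 CPM in Bbs8+/+ and at 168.7, 175.2, 203.2 and 198.1 CPM in Bbs8-/-. Bbs8-/- libraries 1 and 2 lay below every Bbs8+/+ library, while libraries 3 and 4 fell within the Bbs8+/+ range. The means were 207.5 ± 8.32 and 186.3 ± 16.9 CPM, and the log2 fold change of -0.16 ± 0.10 did not pass the test (adjusted p = 0.380 by edgeR). The 95% interval of the fold, 0.780 to 1.03, leaves room for a decrease of that size as well as for no change. Scaling to the summed RPE markers, which lowers all genes by a median of 0.34 on the log2 scale, gave -0.49 with an adjusted p of 3.11e-04, and the same scaling without Ttr, chosen after seeing the data, gave -0.05 with 0.822.

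The other TAM receptors were much lower than Mertk in CPM. Axl (chr7:25757273-25788705, minus strand) stood at 26.7, 25.4, 26.6 and 36 CPM in Bbs8+/+ and at 17.7, 21.5, 34.4 and 27.6 CPM in Bbs8-/-. Its ranges overlapped, and Bbs8+/+ library 4 stood alone above the other 3. Tyro3 (chr2:119797733-119818104, plus strand) stood at 22, 22, 23.3 and 23.4 CPM in Bbs8+/+ and at 23.8, 26.2, 19.2 and 28.3 CPM in Bbs8-/-. The Bbs8-/- values of Tyro3 lay on both sides of that narrow range. Neither gene passed the test, with log2 fold changes of -0.18 ± 0.24 for Axl (adjusted p = 0.722) and 0.11 ± 0.23 for Tyro3 (adjusted p = 0.847). Their 95% intervals, 0.633 to 1.23 and 0.775 to 1.496 on the fold scale, do not show that either was unchanged. The log2 fold change of Tyro3 turned to -0.23 under scaling to the summed RPE markers, and was 0.21 without Ttr in that sum.

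Gas6 and Pros1 encode the bridge proteins that dock on the TAM receptors, and TYRO3 and MERTK can use either. Gas6 (chr8:13465374-13494490, minus strand) stood at 68, 157.8, 139 and 149.8 CPM in Bbs8+/+ and at 115.4, 129, 124.4 and 111.5 CPM in Bbs8-/-. Bbs8+/+ library 1 was the lowest of all 8, whereas the other 3 Bbs8+/+ libraries lay above every Bbs8-/- library. The log2 fold change was -0.10 ± 0.16 (adjusted p = 0.786), and without Bbs8+/+ library 1 it was -0.31 with an adjusted p of 0.0672. Gas6 shares an exon with Tmem255b on the other strand, and whether the counting used strand is not given in the sources used here. Pros1 (chr16:62854307-62929346, plus strand) held 12, 16, 5 and 18 counts in Bbs8+/+ and 11, 29, 14 and 21 counts in Bbs8-/-, and those ranges overlapped. With so few reads its log2 fold change of 0.57 ± 0.50 (adjusted p = 0.561) had an interval from 0.731-fold to 3.00-fold, which includes moderate changes of either sign.

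Cd36 (chr5:17781690-17888801, minus strand) was close to absent from the libraries. It held 2, 4, 0 and 2 counts in Bbs8+/+ and 6, 2, 6 and 0 counts in Bbs8-/-, or at most 2.46 CPM, under the minimum of 1 CPM in 4 libraries. It was therefore not tested, and at these counts no difference between the genotypes could be read.

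The values of the 9 genes as a group are given beside those of all genes. With 8 of them tested, 1 call more or less moves a share widely. Whether the group differs from other genes was not tested. Of the 8 tested, 1 was lower in Bbs8-/-, or 12.5%, where 12.3% of all genes tested were called in either direction (5.46% higher and 6.80% lower), a share near that of the members. The 2 genotypes had separate ranges in 2 of the 8, Mfge8 and Itgav, against 16.0% of all genes tested. No member was higher by edgeR or by DESeq2, and at an unadjusted p under 0.05 the members numbered 0 higher and 2 lower, where all 12889 genes numbered 1453 and 1563. The median log2 fold change of the 8 was -0.13, beside 0.02 over all 12889 genes, with 3 values above 0 and 5 below. Scaling to the summed RPE markers called 4 of the 8 lower, namely Mertk, Gas6, Mfge8 and Itgav, while it called 2999 of all 12889 genes lower and 237 higher. Without Ttr in that sum 1 of 8 was called.

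**Figure D2:**
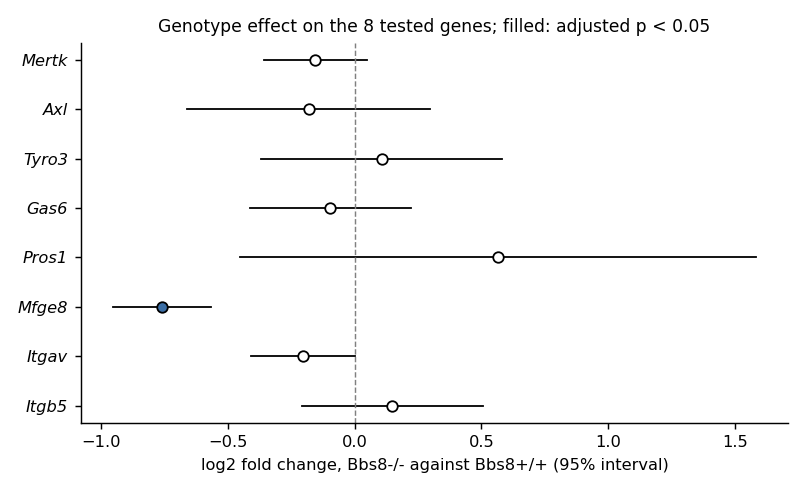
Log2 fold change of the 8 tested genes in Bbs8-/- against Bbs8+/+ RPE, with the 95% interval from edgeR as a line and a filled point where the adjusted p is under 0.05. Mfge8 at -0.76 is the 1 filled point, the Itgav interval ends just below 0, and the widest interval is that of Pros1.

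In CPM, not divided by transcript length, the order of levels in Bbs8+/+ RPE was Mfge8, Mertk, Itgav, Gas6, Itgb5, Axl, Tyro3, Pros1 and Cd36. Mertk and Itgav were the 1 pair of neighbours whose ranges overlapped there, at 196.2 to 216.3 and 180.6 to 211.6 CPM. The order in Bbs8-/- RPE was the same, with Mertk and Itgav, and also Axl and Tyro3, overlapping. Mertk thus stood well above its relatives in both genotypes: the geometric mean of its ratio to Axl was 7.26 in Bbs8+/+ and 7.53 in Bbs8-/-, and that to Tyro3 was 9.08 and 7.65.

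Ratios within a library do not depend on how libraries are scaled, and 6 of them were compared between the genotypes by a two-sided exact permutation test over the 8 libraries, whose smallest possible p is 0.0286. The ratio of Mfge8 to Itgb5, bridge to receptor chain, had the lowest p. Its log2 values were 3.04 ± 0.35 in Bbs8+/+ and 2.15 ± 0.56 in Bbs8-/- (n = 4 each), a difference of -0.89 (exact permutation p = 0.0857, adjusted over 6 ratios 0.400), and the genotypes overlapped. Gas6 to Pros1 went from 27.3 to 17.6 (difference in log2 -0.64, exact p = 0.2), with the few Pros1 reads behind it, and the difference was -0.24 without Bbs8+/+ library 3. Mertk to Tyro3 differed by -0.25 (exact p = 0.143), Itgav to Itgb5 by -0.33 (exact p = 0.286), Gas6 to Mertk by 0.13 (exact p = 0.914) and Mertk to Axl by 0.05 (exact p = 0.857). Without Bbs8-/- library 3, where Tyro3 and Itgb5 were lowest, the differences were -1.14 for Mfge8 to Itgb5, -0.40 for Mertk to Tyro3 and -0.48 for Itgav to Itgb5, each at an exact permutation p of 0.0286, the smallest possible, and 0.0571 after adjustment. Without Bbs8+/+ library 1 Itgav to Itgb5 differed by -0.17. None of the 6 passed after adjustment with all libraries. A single ratio at the smallest possible p could not have passed after adjustment over 6. With 4 libraries against 4 the outcome therefore says little about whether the balance of ligand and receptor was kept.

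**Figure D3:**
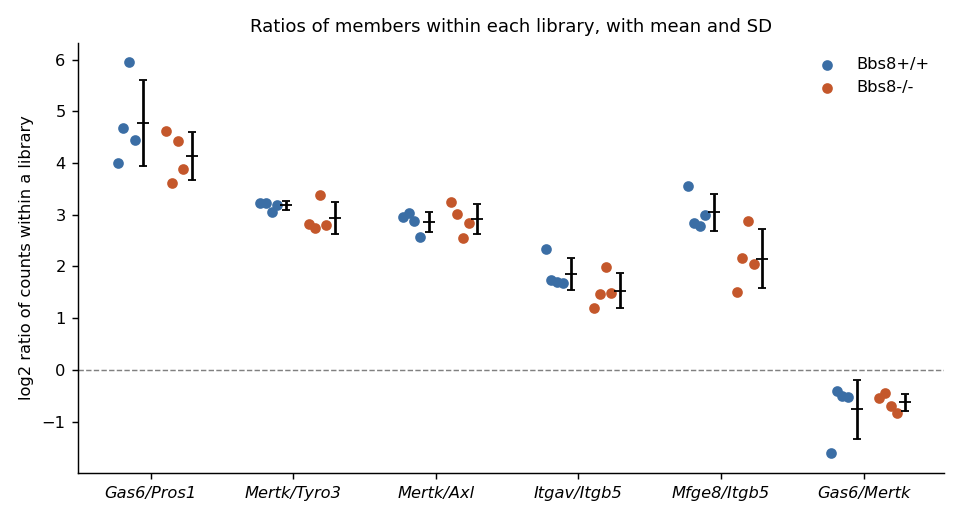
Log2 ratio of the counts of paired members within each library, with 1 point per library (Bbs8+/+ in blue, Bbs8-/- in orange) and the mean with its SD. The genotypes overlap in each of the 6 ratios, and for Gas6/Mertk and Itgav/Itgb5 the outlying Bbs8+/+ point is library 1.

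The wider list of phagocytosis genes held 44 further genes, of which 41 were tested. In Bbs8-/- RPE 5 were higher and 3 lower, with the other 33 not past the threshold. That is 19.5% called, beside 12.3% of all genes, and a median log2 fold change of 0.18 beside 0.02. Grouped by role, 4 of the 7 other ligands and bridges were called (1 higher, 3 lower), 1 of 7 receptors and co-receptors was higher, 3 of 19 signalling and engulfment genes were higher, and neither the 2 receptor-shedding proteases nor the 6 phagosome maturation genes held a call (0 and 1 of them at an unadjusted p under 0.05). At an unadjusted p under 0.05 the list numbered 10 higher and 4 lower, beside the 1453 and 1563 of all genes. DESeq2 called 5 higher and 2 lower on the list, beside 670 and 819 of all genes. The count of higher genes moved with the setting: it was 9 under scaling by library size alone and 2 under scaling to the summed RPE markers. Without Ttr in that sum it was 12.

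Among the RGD ligands, Vtn moved like Mfge8 and Thbs1 moved the other way. Vtn, which encodes an adhesive glycoprotein of plasma and matrix, stood at 338.9, 449.8, 462.3 and 418.8 CPM in Bbs8+/+ and at 152.3, 178.8, 165.2 and 163.9 CPM in Bbs8-/-. The Bbs8-/- libraries lay tightly together, far below the Bbs8+/+ ones, and the log2 fold change was -1.34 ± 0.10 (adjusted p = 2.66e-13 by edgeR). Thbs1, a matrix glycoprotein that bridges apoptotic cells to CD36 and αv integrins, stood at 118.5, 154.8, 177.4 and 160.5 CPM in Bbs8+/+ and at 455.7, 368.7, 379.6 and 368.3 CPM in Bbs8-/-. Every Bbs8-/- library held more than 2 times the highest Bbs8+/+ value, with library 1 highest, and the log2 fold change was 1.36 ± 0.11 (adjusted p = 1.21e-12). Edil3, the closest relative of Mfge8 in structure, was low, at 0.818 to 11.2 CPM in Bbs8+/+ and 2.46 to 6.001 CPM in Bbs8-/-, and its log2 fold change of -0.81 ± 0.59 did not pass (adjusted p = 0.455). The calls for Vtn, Thbs1 and Mfge8 held in all 18 alternative settings.

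**Figure D4:**
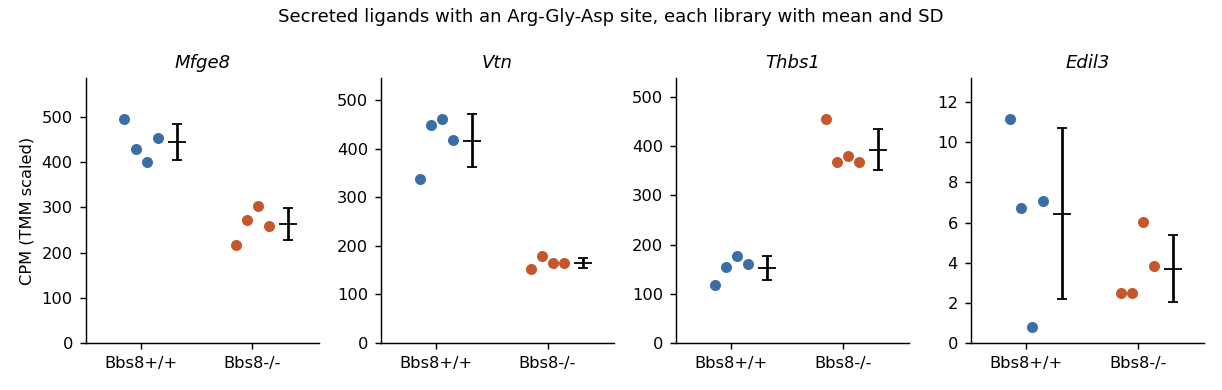
CPM of the 4 genes whose Arg-Gly-Asp codons are printed above, on linear axes that start at 0, with 1 point per library and the mean with its SD. Mfge8 and Vtn are lower in every Bbs8-/- library, Thbs1 is higher in every one, and the Edil3 points overlap at under 12 CPM.

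Tulp1 and Tub encode tubby proteins that have been described as bridging ligands for MERTK, and both are also known as neuronal genes, Tulp1 above all in photoreceptors. Tulp1 stood at 1351, 1193, 1075 and 1148 CPM in Bbs8+/+ and at 599.8, 560.8, 532.5 and 508.4 CPM in Bbs8-/-, again without overlap, and its log2 fold change was -1.11 ± 0.08 (adjusted p = 3.18e-14 by edgeR). Tub stood at 50.5 to 71.6 CPM in Bbs8+/+ and at 38.8 to 47.7 CPM in Bbs8-/-. Its log2 fold change was -0.50 ± 0.17 (adjusted p = 0.0415), and it lost its call in 9 of the 18 alternative settings, among them DESeq2 (adjusted p = 0.0516) and the fits without any one of Bbs8+/+ libraries 1, 2 and 3 or Bbs8-/- libraries 1 and 3, with adjusted p-values from 0.0518 to 0.157. Beside them stands the fall of all 8 rod markers, among them Nrl, the rod transcription factor, with a log2 fold change of -1.58, and Sag, the rod arrestin, with -0.77. The part of rod RNA in the Tulp1, Tub, Vtn and Mfge8 values was not tested.

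Of the receptors, Cd81, a tetraspanin that works beside αvβ5 in particle binding, stood at 289.1, 291.7, 275.9 and 286.2 CPM in Bbs8+/+ and at 422.1, 406, 406 and 410.6 CPM in Bbs8-/-. Both groups were narrow and far apart, with a log2 fold change of 0.52 ± 0.08 (adjusted p = 1.02e-05 by edgeR). Scaling to the summed RPE markers gave 0.18 and an adjusted p of 0.125, and the same scaling without Ttr gave 0.63 and 7.15e-07. Itgb3, whose β3 chain also pairs with αv, stood at 2.45 to 5.22 CPM in Bbs8+/+ and at 0 to 1.64 CPM in Bbs8-/-, which did not overlap, and its adjusted p was 0.0725. Itgb1 (adjusted p = 0.841), Lrp1 (0.231), Scarb1 (0.805), Scarb2 (0.992) and Cd47 (0.0547) did not pass, and Adgrb1 and Megf10 were too low to test.

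Downstream of the receptors, Bcar1, the p130Cas adaptor through which integrins reach Rac, stood at 45.7, 81.3, 81.4 and 79.5 CPM in Bbs8+/+ and at 133.8, 110.4, 132.8 and 121.6 CPM in Bbs8-/-. Bbs8+/+ library 1 was low, but the remaining Bbs8+/+ values also lay below every Bbs8-/- value. The log2 fold change was 0.80 ± 0.15 (adjusted p = 1.39e-04 by edgeR) and kept its call in all 18 alternative settings. Rac1, the GTPase that drives actin into the phagocytic cup, was at 189.1 to 234.1 CPM in Bbs8+/+ and at 237.7 to 280.6 CPM in Bbs8-/-. Its log2 fold change of 0.30 ± 0.10 (adjusted p = 0.0337) became -0.03 under scaling to the summed RPE markers. The same scaling without Ttr gave 0.41 with an adjusted p of 0.00394. Abca1, a lipid exporter, was at 24.4 to 33.5 CPM and at 34.8 to 58.7 CPM, with 0.63 ± 0.20 (adjusted p = 0.0325). Scaling to the summed RPE markers gave Abca1 0.29 with an adjusted p of 0.338, and without Ttr 0.74 with 0.00948. Rac1 lost its call without any one of Bbs8+/+ libraries 2 and 3 or Bbs8-/- libraries 2, 3 and 4, and Abca1 without Bbs8+/+ library 1 or 4 or Bbs8-/- library 1 or 4, with adjusted p-values from 0.0638 to 0.163.

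The kinase Ptk2 (adjusted p = 0.0550), Src (0.462), the exchange factor Dock1 (0.271) and the motor Myo7a (0.526), which carries phagosomes in the RPE, did not pass. Among the phagosome genes Ctsd, a lysosomal protease, stood at 2009 to 2725 CPM in Bbs8+/+ and at 2537 to 2712 CPM in Bbs8-/- with an adjusted p of 0.0539. Lamp1 (0.429) and Rab7 (0.238) did not pass either.

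**Figure D5:**
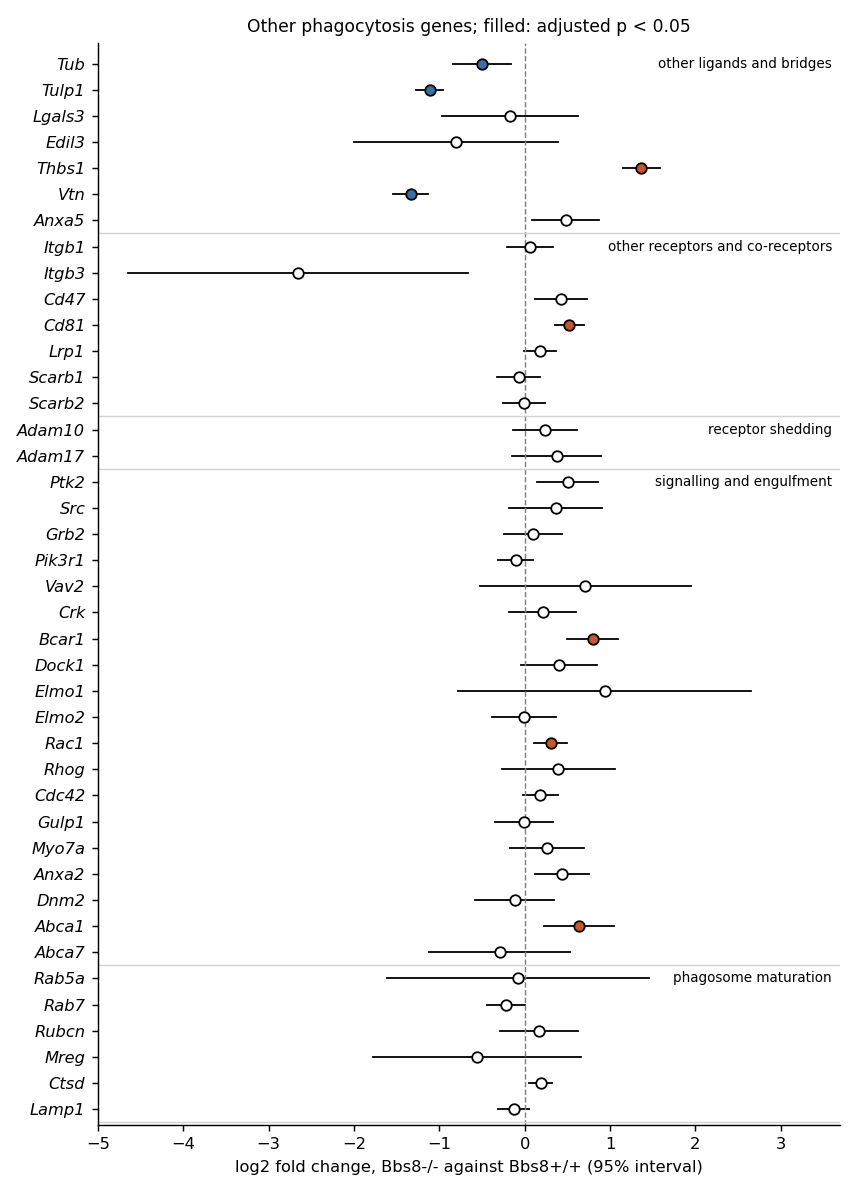
Log2 fold change of the 41 tested genes of the wider phagocytosis list in Bbs8-/- against Bbs8+/+ RPE, in 5 blocks by role, with the 95% interval from edgeR as a line and filled points for an adjusted p under 0.05. The 3 filled points left of 0 are ligands (Tub, Tulp1 and Vtn), and the 5 right of 0 are Thbs1, Cd81, Bcar1, Rac1 and Abca1.

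Several cell types that could lie in the preparation also use these genes, and their markers are given for that reason. Microglia and macrophage markers summed to 353 to 455 CPM in Bbs8+/+ and 319 to 361 CPM in Bbs8-/-, most of it Csf1r at 278 to 386 and 235 to 274 CPM, and none of the 10 tested passed by edgeR, with 1 (Csf1r) at an unadjusted p under 0.05. Müller glia markers were at 1148 to 1342 and 1757 to 1897 CPM, most of it Glul at 1088 to 1270 and 1641 to 1757 CPM. Glul and Dkk3 were the 2 of 5 called higher. Fibroblast markers were at 1032 to 1390 and 970 to 1157 CPM (2 of 6 lower), and pericyte and smooth muscle markers at 152 to 186 and 137 to 185 CPM. Endothelial markers were at 25 to 37 and 29 to 37 CPM, and melanocyte and Schwann cell markers at 125 to 176 and 170 to 181 CPM. Lens markers went from 1831 to 1954 CPM down to 287 to 323 CPM (8 of 8 lower), erythrocyte markers from 5152 to 5717 down to 1985 to 2217 CPM (5 of 5 lower), and cone markers from 153 to 194 up to 278 to 302 CPM (5 of 6 higher). Ocular surface epithelium markers, which are 4 keratins and Trp63, summed to 0 to 1.12 CPM in Bbs8+/+ and to 32.9 to 50.01 CPM in Bbs8-/-. The 3 tested, Krt5, Krt14 and Krt15, were all higher, and Krt12 was at 0. Trp63 did not rise with them, at 1, 3, 0 and 0 counts in Bbs8+/+ and 0 in every Bbs8-/- library. The adipocyte genes Adipoq and Plin1 were at 0 in all libraries. The part of these cells in the Mfge8 and Thbs1 values was not tested. With the listed rod, cone, lens and erythrocyte genes left out of the TMM scaling, Mfge8 was again at a log2 fold change of -0.76. That setting changes the scaling factors only, with a median shift of -0.0014 over all genes. It takes no RNA of those cells out of the Mfge8 value.

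Genes whose CPM followed the same pattern over the 8 libraries were sought among the 8427 genes whose mean reached 10 CPM, by the root mean square difference of their centred log2 values. Nearest to Mfge8 were Eif3f, a translation initiation factor subunit (0.0539), Grina (0.0666) and Wfikkn2, a secreted protease inhibitor domain protein (0.0783). Their log2 fold changes were -0.71, -0.72 and -0.68, close to the -0.76 of Mfge8. Nearest to Mertk were Dusp4, a MAP kinase phosphatase (0.0477), Celf4, an RNA-binding protein (0.0504), and Cbx1, a heterochromatin protein (0.0505), with log2 fold changes of -0.18, -0.14 and -0.14, none past the threshold by edgeR. The distance includes the difference between the genotypes, so similar fold changes follow from the selection, for Mfge8 and for Mertk. The likeness is a description of 8 libraries and carries no test.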

How the data were processed

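RPE of 4 Bbs8-/- and 4 Bbs8+/+ mice was profiled at P29 by QuantSeq 3′ mRNA-Seq. Per the methods of the study and the labels, the authors trimmed reads with BBDuk, aligned them to mm10 with STAR and counted unique reads per gene with htseq-count on an Ensembl annotation. The deposited files hold these raw counts per gene, unnormalised, with 1 file per library. The 5 summary lines of each file were left out of library sizes. As shares of the counts on genes and these lines together, no feature held 17.0 to 20.6% and ambiguous reads 0.244 to 0.296%. Reads not mapped uniquely made up 32.8 to 34.5%. Reads without molecular identifiers are not independent molecules, so depth limits cover counting error only.

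Names were matched for 30934 of 31053 Ensembl identifiers, and positions are from GENCODE M21 (GRCm38). Genes reaching 1 CPM in 4 or more of the 8 libraries were scaled by TMM and tested with edgeR 4.0.16 (quasi-likelihood F test, R 4.3.3) on genotype alone, with Benjamini-Hochberg adjustment over 12889 genes and a threshold of 0.05. Standard errors were taken from the log2 fold change and its F value. Within-library log2 ratios of counts (0.5 added) were compared by exact permutation over 70 splits. The edgeR fit was tested on simulated counts, and the permutation calculation on a set of values with a known answer. Alternatives were DESeq2 1.42.0, other scalings and filters, a replicate block and leaving out each library.

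Members and gene lists were chosen with earlier results of these data known. Named genes were Ttc8, the 9 members, listed phagocytosis genes past the threshold (at most 20 by adjusted p) and, for Mertk and each called member, the 3 genes nearest in pattern. Other listed genes (Edil3, Itgb3, Itgb1, Lrp1, Scarb1, Scarb2, Cd47, Ptk2, Src, Dock1, Myo7a, Ctsd, Lamp1 and Rab7) and single markers were named after their values were seen.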

Additional observations from a re-analysis of the deposited data

Results flagged for a closer look

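In 7 of the 46 groups of 4 libraries examined, 1 library lay so far from the other 3 that the gap, as a share of the whole range, exceeded Dixon's critical value at the 95% level, where chance alone flags about 1 in 20 groups. Of these, 4 involve Bbs8+/+ library 1: Itgb5 at 41.98 CPM, Bcar1 at 45.7 CPM, the log2 ratio of Itgav to Itgb5 at 2.329 and that of Gas6 to Mertk at -1.616. The others are Axl at 36.05 CPM in Bbs8+/+ library 4, Thbs1 at 455.7 CPM in Bbs8-/- library 1, and the log2 ratio of Mertk to Tyro3 at 3.39 in Bbs8-/- library 3. Without the library in question, Thbs1 and Bcar1 stayed past the threshold in edgeR, and Axl and Itgb5 stayed short of it. The log2 ratio differences between the genotypes became -0.40 for Mertk to Tyro3 (from -0.25, exact permutation p = 0.0286, adjusted 0.0571), -0.17 for Itgav to Itgb5 (from -0.33) and -0.16 for Gas6 to Mertk (from 0.13).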

How the results depend on the processing

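Across 18 alternative settings (8 of them leaving out 1 library, 1 chosen after seeing the data), the direction and call of Mfge8, Tulp1, Vtn, Thbs1 and Bcar1 did not change, nor did those of Axl and Pros1, which passed in none. Scaling to the summed RPE markers moved most values: it shifted all genes by a median of -0.34 (log2), gave 237 higher and 2999 lower genes in place of 704 and 877, 4 members lower in place of 1, and 2 higher and 9 lower genes of the other phagocytosis list in place of 5 and 3, and it turned Tyro3 to -0.23, Itgb5 to -0.19 and Rac1 to -0.034. The same scaling without Ttr, added later, shifted all genes by 0.10, gave 1068 higher genes and 12 on the phagocytosis list, and turned Gas6 to 0.012. Of all calls, 44.5% were higher in the reported fit, 60.5% under library size alone, 7.32% under RPE markers and 63.4% under RPE markers without Ttr. Library size alone and a minimum of 1 CPM in all libraries each gave 9 higher phagocytosis genes. Leaving out 1 library (with the filter set to 3 libraries) gave 3 to 7 of these, 3 without Bbs8-/- library 4, and Gas6 values from -0.31 without Bbs8+/+ library 1 to 0.013 without library 2. The log2 ratio difference of Gas6 to Mertk ran from -0.16 without Bbs8+/+ library 1 to 0.25, and that of Mertk to Axl from -0.058 without Bbs8-/- library 1 to 0.17, with -0.04 without Bbs8+/+ library 4. For the turned values the cause was not tested. Replicate numbers are shared by the genotypes. Deviations of same-numbered libraries correlated at -0.0285 to 0.0086, and those of differently numbered libraries at -0.0194 to 0.0295. These values gave no sign of pairing by number, but with counting noise in them they cannot exclude it. With the replicate block, 650 genes were higher and 827 lower, and Tub and Abca1 were no longer called. At this depth Pros1 and Cd36 were limited by their counts.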
